A study of Mus musculus with 2 samples.

Results

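Cholangiocytes, the epithelial cells that line the bile ducts, were examined among liver non-parenchymal (that is, non-hepatocyte) cells from Mfap2+/+ (WT) and Mfap2-/- (KO) mice. All mice had received intraperitoneal CCl4 (carbon tetrachloride, a liver toxin used to induce scarring) over 8 weeks, and no group without CCl4 was analysed here. Mfap2 encodes microfibril-associated glycoprotein 1, a protein of extracellular microfibrils, and the series asks about its role in experimental liver fibrosis. The labels give 1 droplet single-cell RNA library per genotype, name the genotype without describing the allele, and give neither the age and strain of the mice nor the number of animals in a library. No test between the genotypes was therefore possible, and genotype, animal and library preparation cannot be told apart.

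Cholangiocytes were chosen by their own counts of unique molecular identifiers (UMIs, tags of single RNA molecules). A cell was taken with at least 1 UMI of Epcam, an epithelial adhesion molecule, and at least 3 UMIs of the duct keratins Krt7 and Krt19 together. It could hold at most 20 UMIs of the macrophage genes C1qa, C1qb and C1qc, at most 5 of the endothelial genes Stab2, Clec4g and Ptprb, none of the T-cell genes Cd3d, Cd3e and Cd3g, and at most 2 of the B-cell genes Cd79a, Cd79b and Ms4a1. In all, 120 of 24093 cells that passed the quality filter met this rule, 65 of 11370 in the WT library and 55 of 12723 in the KO library. The comparisons below set WT against KO cholangiocytes as sums over cells. The levels of the rule genes, and of any gene in these cells against other cells, describe the choice of cells and were not tested.

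Cholangiocytes modify bile by secreting chloride, bicarbonate and water under the control of secretin and of the chloride channel CFTR, and they carry a primary cilium that senses flow. Their fate depends on SOX9 and Notch signalling. In injured liver they can multiply and take on a reactive state known as the ductular reaction, with release of osteopontin (Spp1), chemokines and fibrogenic signals, and they hold tight junctions that keep bile out of the tissue.

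The 2 libraries differed in depth. They held 11783 WT and 12872 KO barcodes, and cells that passed the filter had medians of 4932.5 and 6587 UMIs. Mfap2 had 257 UMIs over these cells in the WT library and 4 in the KO library, which matches the labels. Cholangiocytes held only 1 Mfap2 UMI in WT and 0 in KO, and 0 counts among 1177604 UMIs allow up to 3. The libraries shared 40 barcodes, none of them of a cholangiocyte. Cholangiocytes were deeper than the average cell: WT cells ranged from 589 to 68767 UMIs with a median of 16310, and KO cells from 1531 to 44361 with a median of 19229. Summed UMIs were 1228771 in WT and 1177604 in KO, so the summed profiles rest on nearly equal totals. Levels are given as counts per 1000000 UMIs of these sums (CPM), and ratios as log2 of KO over WT with 1 count added to each sum. The 95% intervals cover counting error only, and not the variation between cells, animals or preparations.

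The label held against markers that the rule did not use. Of 9 further biliary genes (among them Sox9, Cdh1, Tm4sf4, Cldn3, Cldn7, Bicc1, Pkhd1 and Cftr), 57 of 65 WT and 50 of 55 KO cells had a UMI of at least 7, with a median of 8 in both libraries. The median in all other cells was 0. Fewer than 5 were seen in 8 WT and 2 KO cells. Of these, 6 WT cells and both KO cells had fewer than 2000 UMIs, while the other 2 WT cells held at least 10 UMIs of mesothelial markers such as Msln and Muc16, genes of the liver surface layer. Hepatocyte markers did not reach 5% of UMIs in any cholangiocyte, but they stood higher than in other cells. They were at 3193 CPM in WT and 3688 CPM in KO, against 562.6 and 1126 CPM in other cells. At least 3 hepatocyte-marker UMIs were held by 57 WT and 53 KO cells. Macrophage markers stood at 696 CPM in WT and 682 CPM in KO against 5753 and 3996 CPM in other cells, and neutrophil markers at 699 and 662 CPM against 8593 and 4727 CPM. The part of free RNA in these levels was not tested. Erythroid markers differed, at 1710 CPM in WT and 149.5 CPM in KO, with up to 10.5% of the UMIs of a single WT cell, and their part in the results was not tested. Mesothelial markers stood at 262 CPM in WT (8 of 8 detected) and 194.5 CPM in KO (7 of 8, with Upk1b at 0). These levels were also above those of other cells, at 54.97 and 38.02 CPM. At least 3 mesothelial-marker UMIs were held by 16 WT and 28 KO cells, and at least 10 by 2 WT and 7 KO cells. Per cell, these markers had a median of 0.0056% of UMIs in WT and 0.0149% in KO. The highest cell held 0.94% in WT and 0.069% in KO, so the median cell was higher in KO.

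The rule genes set the base for what follows, and they are also lower in KO cholangiocytes. Epcam stood at 1026 CPM (95% interval 970 to 1084) in WT and 807 CPM (756 to 860) in KO. Krt19 stood at 323 CPM in WT and 235 CPM in KO, a log2 ratio of -0.46 (-0.68 to -0.23). Krt7 stood at 136.7 CPM in WT and 81.5 CPM in KO, a log2 ratio of -0.74 (-1.12 to -0.38). In B cells (at least 5 UMIs of the B-cell genes, 817 WT and 1384 KO cells), which do not make these proteins, Epcam reached 46.7 and 105.6 CPM, Krt19 13.4 and 27.3 CPM, and Krt7 7.29 and 11.3 CPM. These summed B-cell levels were higher in the KO library, in the direction opposite to that of the cholangiocytes. The share of B cells with a UMI was 8.69% in WT and 10.19% in KO for Epcam. It was 1.84% and 2.96% for Krt19, and 1.84% and 1.23% for Krt7. B cells were not limited in epithelial UMIs, so mixed barcodes may be among them, and the source of this RNA was not tested.

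Lower keratin counts bear on how many cells pass a keratin threshold. By the rule, cholangiocytes were 0.572% of WT cells (0.442 to 0.728, exact binomial interval) and 0.432% of KO cells (0.326 to 0.562). The log2 ratio of the shares was -0.40, with an interval from -0.95 to 0.14 that includes no difference. Just outside the threshold, 15 WT and 25 KO cells had 2 keratin UMIs and met all other limits. They carried Spp1 at 16690 and 12780 CPM. Just inside it, the 11 WT and 13 KO cells with 3 keratin UMIs carried Spp1 at 15070 and 9398 CPM. Other duct genes varied: in cells with 2 and with 3 keratin UMIs, Sox9 stood at 273 and 584 CPM in WT and 291 and 193.5 CPM in KO, and Cldn7 at 260 and 553 CPM in WT and 194 and 222 CPM in KO. Cells with at least 7 of the 9 biliary genes that failed on the keratins alone numbered 18 in WT and 57 in KO, with medians of 8012.5 and 11524 UMIs. When the keratin and Epcam clauses were replaced by at least 7 of the 9 genes, 76 WT and 108 KO cells qualified and the log2 ratio of shares was 0.34. The direction of the share thus depended on the definition. A further 66 WT and 72 KO cells with Epcam and keratins were left out for markers of other lineages. Their medians of 59990 and 82760 UMIs were far above those of the cells kept.

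**Figure D1:**
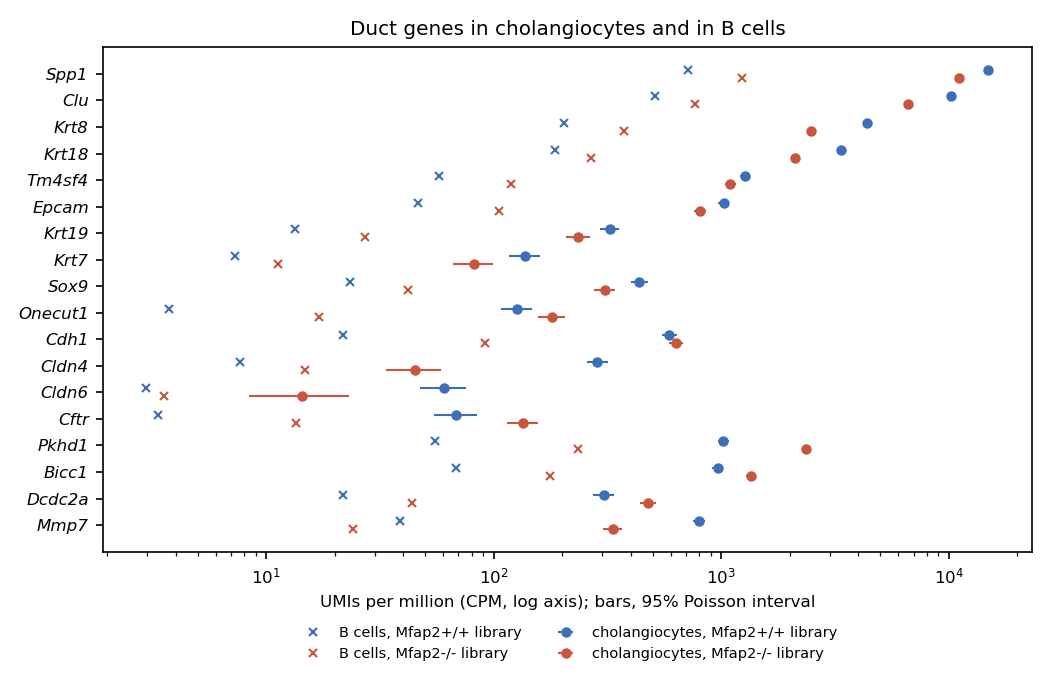
Levels of 18 duct genes (rows) in cholangiocytes (circles, with 95% Poisson intervals) and B cells (crosses) of the Mfap2+/+ (blue) and Mfap2-/- (red) libraries, in CPM on a log axis. Cholangiocyte levels lie above B-cell levels for all genes shown; Cldn4 stands at 285 CPM in WT and 45.0 CPM in KO, and Pkhd1 at 1021 and 2368 CPM.

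The make-up of the RNA differed between the libraries and moved with many of the gene groups below. Genes spanning at least 100 kb took 15.4% of cholangiocyte UMIs in WT and 23.7% in KO. Ribosomal protein genes took 11.25% in WT and 7.71% in KO, and the nuclear RNA Malat1 took 1.05% and 1.501%. Mitochondrial genes took 3.22% and 2.64%. B cells moved the same way: long genes took 17.3% in WT and 22.1% in KO, and ribosomal protein genes 16.25% and 11.8%. Per cell, the long-gene share ran from 2.38% over a median of 15.4% to 27.4% in WT and from 4.57% over 24.2% to 31.9% in KO. The ranges overlapped, but 52 of 65 WT cells and 8 of 55 KO cells lay below the common median of 18.1%.

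Across all 10159 genes whose UMIs in the 2 libraries summed to at least 20, 723 (7.12%) were at least 2-fold higher in KO cholangiocytes. At least 2-fold lower were 355 (3.49%), and the median log2 ratio was 0.08. Ratios were above 0 for 5594 of these genes and below 0 for 4565. The median was -0.41 for genes under 10 kb and 0.64 for genes of at least 100 kb. Of the latter, 19.4% were at least 2-fold higher and 1.17% at least 2-fold lower. Of genes under 10 kb, 2.04% were higher and 8.17% lower. All other cells gave medians of -0.25 and 0.41 for the same span classes. The part of this length gradient in the differences of single genes was not tested. Ratios were also taken within cells below the common median long-gene share (low share) and within cells at or above it (high share). This split did not match the libraries, whose long-gene shares still differed within each stratum. Of 103 genes from the lists and extremes with at least 20 UMIs in each stratum (WT and KO together), 66 kept the sign they had over all cells in both, 33 had the opposite sign in 1 and 4 in both. Such values rest on few cells, 8 KO cells below the median and 13 WT cells at or above it.

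**Figure D2:**
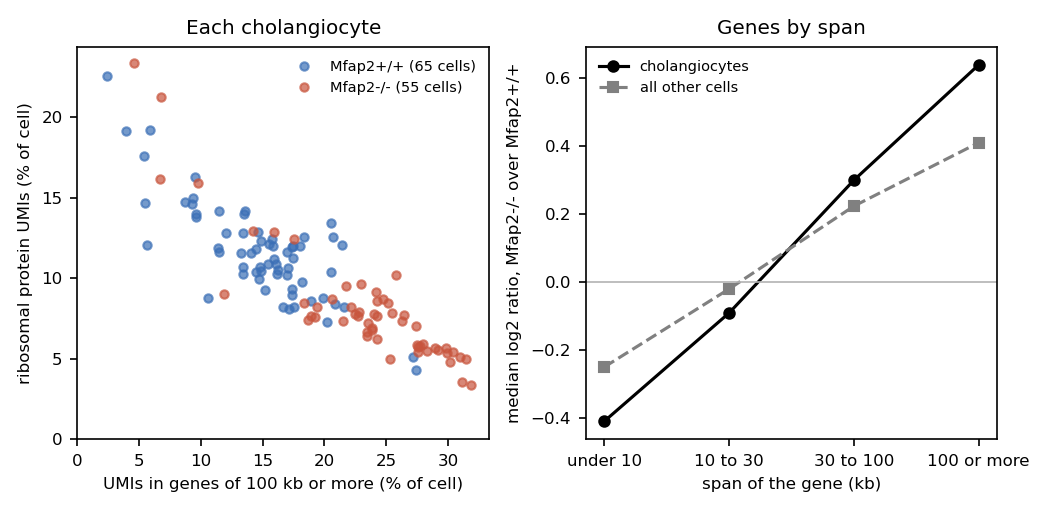
Left, the percent of each cholangiocyte's UMIs in genes of at least 100 kb (x axis) and in ribosomal protein genes (y axis), 1 point per cell. Right, the median log2 ratio of KO over WT for genes by span in kb, in cholangiocytes (black) and all other cells (grey): it runs from -0.41 to 0.64 in cholangiocytes and from -0.25 to 0.41 in other cells.

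The transcription factors of biliary identity were present in both libraries. Among 10 genes the median log2 ratio was 0.06. Of them 1 was at least 2-fold higher and none 2-fold lower, against 7.12% and 3.49% of all genes. Sox9, the factor that marks ducts from the embryo on, stood at 436 CPM in WT and 307 CPM in KO, a log2 ratio of -0.50 (-0.70 to -0.31). Onecut1, a factor of duct development, stood at 126.1 CPM in WT and 180.0 CPM in KO, and Onecut2 at 315 and 406 CPM. The epithelial factor Grhl2 was the gene past 2-fold, at 38.25 CPM (47 UMIs) in WT and 100.2 CPM (118 UMIs) in KO. Sox4, a factor of progenitor and injured epithelium, stood at 623 and 318 CPM, a log2 ratio of -0.97 (-1.16 to -0.79), and Elf3 at 87.9 and 47.55 CPM. The short genes Sox9, Sox4 and Elf3 were lower in KO, and the longer genes Grhl2 and Onecut2 higher. Sox9 was at 0.21 within cells of low long-gene share and -0.32 within cells of high share, and Onecut1 at -1.12 (6 KO UMIs) and 1.42.

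Keratins and junction proteins make the duct lining a tight sheet. Of 14 genes in this list with enough UMIs, none was 2-fold higher and 2 were 2-fold lower, against 3.49% of all genes and 8.17% of genes under 10 kb, with a median log2 ratio of -0.28 against -0.18 for the same genes in all other cells. Krt8, which with Krt18 forms the simple-epithelial filament, stood at 4365 CPM in WT and 2478 CPM in KO. A cell's Krt8 level ran from 4.18 to 115 UMIs per 10000 in WT, with a median of 39.7, and from 1.95 to 68.1 in KO, with a median of 18.9, so that the ranges overlapped. The log2 ratio of Krt8 was -0.82 (-0.88 to -0.75), and that of Krt18 was -0.67 (-0.74 to -0.59). Within cells of low long-gene share the Krt8 ratio was -0.16, and within cells of high share it was -0.91. Cdh1, the E-cadherin of adherens junctions, stood at 592 and 633 CPM, and its interval (-0.05 to 0.25) included no difference. The tight-junction proteins Ocln (log2 ratio 0.19, -0.06 to 0.44) and Cgn (0.86, 0.38 to 1.39) had ratios above 0, and the desmosomal cadherin Dsg2 stood at 754 and 993 CPM.

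Cldn4 and Cldn6 were the genes of this list past 2-fold. Cldn4 (ENSMUSG00000047501, chr5:134945119-134946934 on the minus strand of GRCm38), a claudin that lowers the sodium permeability of tight junctions, had 350 UMIs (285 CPM) in WT and 53 UMIs (45.0 CPM) in KO. Its log2 ratio of -2.64 (-3.11 to -2.24) was the second lowest among the 536 genes that met the level and detection limits for naming. A Cldn4 UMI was found in 40 of 65 WT cells (61.5%, 48.6 to 73.35) and 26 of 55 KO cells (47.3%, 33.65 to 61.2). In B cells, at medians of 4060 and 5413.5 UMIs, the shares were 0.979% and 1.52%. After each cell was thinned to 1000 UMIs, 10 of 63 WT cells (15.9%, 7.88 to 27.3) and 2 of 55 KO cells (3.64%, 0.443 to 12.5) kept a Cldn4 UMI. The highest cell stood at 16.7 per 10000 UMIs in WT and at 5.46 in KO, the latter in a cell of only 1831 UMIs. The 3 richest cells held 31% and 32% of the UMIs, so the difference was spread over cells. It was -1.08 within cells of low long-gene share and -2.19 within cells of high share.

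Cldn6, a claudin known from fetal and progenitor epithelium, had 74 UMIs in 35 WT cells and 17 UMIs in 11 KO cells, a log2 ratio of -1.998 (-2.92 to -1.29). The other claudins of the list, Cldn3 and Cldn7, stood at 622 and 443 CPM in WT and at 331 and 257 CPM in KO, log2 ratios of -0.91 and -0.78. All 4 claudins were thus lower in KO cholangiocytes, by unequal amounts. In all other cells, which hold duct cells left out by the rule as well as free RNA, the Cldn4 ratio was -1.08 and the Cldn6 ratio -0.52.

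**Figure D3:**
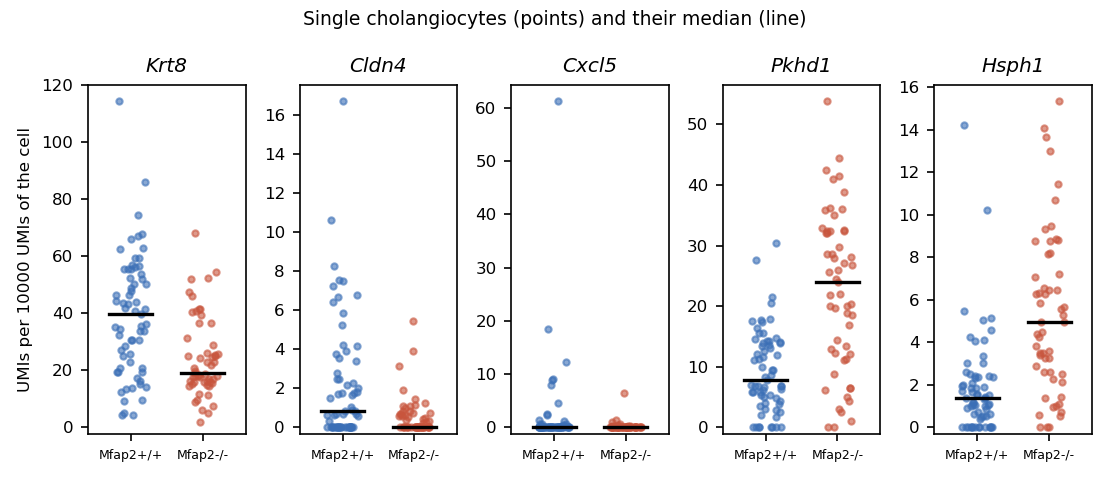
UMIs per 10000 UMIs of the cell (y axis, linear, own scale per gene) for 5 genes in single Mfap2+/+ (blue) and Mfap2-/- (red) cholangiocytes; lines mark the median over cells. The Krt8 median is 39.7 in WT and 18.9 in KO, the Pkhd1 median 7.83 and 24.0, and most Cxcl5 UMIs sit in a few WT cells. The highest Cxcl5 point, 61.4, is a WT cell of only 1141 UMIs.

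Genes of bile secretion and transport showed no common direction. Of 16 listed genes, 11 had at least 20 UMIs, the median log2 ratio was 0.00, and none was past 2-fold in either direction. Of all genes, 7.12% were at least 2-fold higher and 3.49% lower. Slc51a, Slc51b, Gpbar1, Slc9a3 and Ggt1 had too few UMIs. Cftr, the chloride channel of bile secretion, stood at 68.4 CPM (84 UMIs) in WT and 134.2 CPM (158 UMIs) in KO, a log2 ratio of 0.96 (0.58 to 1.37) for a gene of 152 kb. Within cells of low long-gene share this ratio was -0.47 (3 KO UMIs), and within cells of high share it was -0.03. Sctr, the secretin receptor, had 33 UMIs in WT and 16 in KO, a log2 ratio of -0.94 (-1.94 to -0.08). The sodium pump subunit Atp1b1 stood at 546 and 547 CPM and the cotransporter Slc12a2 at 98.5 and 98.5 CPM. The chloride channel Ano1 stood at 52.9 and 77.3 CPM.

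Secreted and surface proteins of ducts included the most abundant RNAs of these cells. Spp1, which encodes osteopontin, a matrix cytokine of the ductular reaction, had 18320 UMIs (14910 CPM) in WT and 13050 UMIs (11080 CPM) in KO, a log2 ratio of -0.43. It reached 710.5 and 1234 CPM in B cells. Clu, a secreted chaperone, stood at 10210 and 6607 CPM, a log2 ratio of -0.63 (-0.67 to -0.59). Of the 12 genes with enough UMIs 10 had ratios below 0, against 4565 of all 10159 genes. None was past 2-fold, against 7.12% of all genes higher and 3.49% lower. The median was -0.39, against -0.32 in other cells and -0.41 for all genes under 10 kb in cholangiocytes. Lcn2, an iron-siderophore binder induced in injured epithelium, stood at 847 CPM in WT and 434 CPM in KO, a log2 ratio of -0.96 (-1.12 to -0.81). In all other cells, where neutrophils also make it, the Lcn2 ratio was -0.82. Wfdc2, a secreted protease inhibitor of epithelia, stood at 194.5 and 106.1 CPM, while Tm4sf4 and Cd24a, surface proteins of ducts, stood at 1273 and 617 CPM in WT and 1097 and 442 CPM in KO. Prom1, a surface marker of progenitor-like duct cells, stood at 88.7 and 112.9 CPM with an interval from -0.03 to 0.73. The list's median was -0.36 within cells of low long-gene share and 0.0093 within cells of high share. Within cells of high share the Spp1 ratio was 0.01 and the Lcn2 ratio 0.005, and within cells of low share they were -0.29 and -0.68.

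The cilium genes gave the opposite picture. Of 10 genes 9 had ratios above 0, against 5594 of all 10159 genes. Past 2-fold higher were 2, against 7.12% of all genes and 19.4% of genes of at least 100 kb. The median log2 ratio was 0.47 against 0.35 in other cells. Pkhd1 encodes fibrocystin, a ciliary membrane protein whose loss causes recessive polycystic kidney and liver disease, and it spans 560 kb (chr1:20057779-20618064, minus strand). It had 1254 UMIs (1021 CPM) in WT and 2788 UMIs (2368 CPM) in KO, a log2 ratio of 1.21 (1.12 to 1.31). Its level per cell ran from 0 over a median of 7.83 to 30.4 UMIs per 10000 in WT and from 0 over 24.0 to 53.9 in KO. The ratio was -0.78 within cells of low long-gene share (51 KO UMIs) and 0.47 within cells of high share. Bicc1, an RNA-binding protein linked to renal cysts, stood at 964 and 1356 CPM, and Dcdc2a, a microtubule-binding protein linked to neonatal sclerosing cholangitis, at 304 and 477 CPM. Pkd2, the polycystin-2 channel, had 82 and 147 UMIs (log2 ratio 0.90), and Arl13b, a ciliary GTPase, 226 and 446 UMIs (1.04). Arl13b was also found in B cells, at 220 and 209.9 CPM, with a UMI in 54.7% and 58.5% of them. Cys1, a short gene for the cilium protein cystin, was the exception at 47 and 38 UMIs. When each gene was set against genes of like span, the median of the list was 0.05. Within cells of low long-gene share the list's median was 0.33, and within cells of high share 0.47.

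Notch and YAP signalling guide duct fate and the ductular reaction. Of 5 Notch genes with enough UMIs 1 was 2-fold lower, against 3.49% of all genes. That gene, Hes1, a direct Notch target, stood at 326 CPM (401 UMIs) in WT and 160 CPM (188 UMIs) in KO. Its log2 ratio was -1.03 (-1.29 to -0.78). Hes1 was also at -0.73 in all other cells. The ligand Jag1 (101 and 88 UMIs) and the receptor Notch2 (236 and 253 UMIs) had intervals that included no difference, and Rbpj, the DNA-binding partner, stood at 75.7 and 114.6 CPM. Hes1 was lower within both low (-1.22) and high (-1.08) long-gene share.

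Among the 9 Hippo-YAP genes 2 were 2-fold lower and none 2-fold higher, against 3.49% and 7.12% of all genes. Ccn2, the connective tissue growth factor, had 272 UMIs in WT and 110 in KO, a log2 ratio of -1.24 (-1.58 to -0.92). Ajuba had 55 and 24 UMIs (-1.10), while Ccn1 stood at 1003 and 819 CPM and Ankrd1 at 378 and 299 CPM. The coactivator Wwtr1 (TAZ) stood at 308 CPM in WT and 570 CPM in KO, and the factor Tead1 at 196 and 340.5 CPM, both long genes. Yap1 itself had 66 and 106 UMIs (log2 ratio 0.74). Within cells of low long-gene share Wwtr1 was at -0.39 and Tead1 at -0.08, and within high share at 0.32 and 0.54. The list's median was -0.29, and its sign changed under 3 of the alternatives, at 0.26 with tighter limits on other lineages, 0.32 after thinning and 0.096 against genes of like span.

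Fibrogenic and ductular reaction signals are the means by which reactive ducts act on stellate cells and fibroblasts. Of 13 genes with enough UMIs 9 had ratios below 0, against 4565 of all 10159 genes. The median was -0.55 against 0.10 in other cells. In each direction 1 gene was past 2-fold, against 7.12% of all genes higher and 3.49% lower. The genes past 2-fold, Edn1 (21 and 8 UMIs) and Ncam1 (7 and 15 UMIs), had few counts. Pdgfa, a mitogen of fibroblasts, stood at 153.8 CPM in WT and 85.8 CPM in KO (-0.84), and Pdgfb at 86.3 and 56.0 CPM (-0.61). Tgfb2, the TGF-beta ligand of ducts, had 225 UMIs in WT and 147 in KO, but 53% of the WT UMIs came from 3 cells. The TWEAK receptor Tnfrsf12a, which drives ductular growth, stood at 304 and 160 CPM, a log2 ratio of -0.92 (-1.19 to -0.67). The stress cytokine Gdf15 had 169 and 87 UMIs (-0.89). Vegfa went the other way at 189.6 and 269 CPM, as did Itgb8, a TGF-beta-activating integrin, at 44.8 and 77.3 CPM, whereas its partner Itgav stood at 590 and 520 CPM. The direction of the median was not stable, since it was 0.07 without the 3 richest cells for each gene.

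Chemokines and NF-kB response genes were lower as a list. Of 11 genes with enough UMIs 9 had ratios below 0, against 4565 of all 10159 genes. At least 2-fold lower were 3, against 3.49% of all genes. The median was -0.77, against -0.27 in other cells and -0.41 for all genes under 10 kb in cholangiocytes. Nfkbia, the inhibitor that NF-kB itself induces, stood at 1522 CPM (1870 UMIs) in WT and 850 CPM (1001 UMIs) in KO, a log2 ratio of -0.84 (-0.95 to -0.73). The neutrophil attractants Cxcl1 and Cxcl2 stood at 360 and 441 CPM in WT and 243 and 262 CPM in KO. Cxcl2 was higher in B cells, at 735 and 621 CPM, than in cholangiocytes, and the part of free RNA in its level here was not tested. Cxcl16, a membrane-bound chemokine, had 253 and 119 UMIs (-1.02), and Ccl2, the monocyte attractant, 61 and 21 UMIs (-1.43), with 72% of the WT UMIs in 3 cells.

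Cxcl5 (chr5:90759360-90761624, plus strand), an epithelial neutrophil attractant, had the lowest ratio of the named genes at -4.16 (-5.24 to -3.44), with 241 UMIs in WT and 12 in KO. It was carried by few cells: 15 of 65 WT cells (23.1%) and 8 of 55 KO cells (14.55%) had a UMI, and 3 WT cells held 69% of the WT UMIs. The difference therefore rests on a small set of WT cells. In B cells 1.10% in WT and 1.59% in KO had a Cxcl5 UMI. Their summed Cxcl5 levels were 3.15 and 16.9 CPM, higher in KO, in the direction opposite to that of the cholangiocytes. The part of free RNA in the few KO cholangiocyte UMIs was not tested. Within low long-gene share the list's median was -0.30 and within high share -0.47.

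NF-kB binds decameric elements, and GGGANNNNCC was searched on both strands in the 250 bases before the start. Promoter windows, 250 bases before to 50 after the start, came from RefSeq (GRCm38), where 129 of the 174 listed genes were matched. It was found in 7 of the 10 promoter windows of this list in the table (70.0%), some genes having more than 1 window, against 17.6% of all 32851 promoters. These promoters are shown since NF-kB elements are what the genes of the list are known to share. The Cxcl1 stretch lies at chr5:90891130-90891209 and the Cxcl2 stretch at chr5:90903777-90903837, both on the plus strand, with matches in capitals. Within GGGAATTTCCC, which both promoters hold, matches of the pattern on the 2 strands overlap.
Cxcl1: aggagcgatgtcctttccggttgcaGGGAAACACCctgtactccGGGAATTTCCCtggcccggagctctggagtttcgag
Cxcl2: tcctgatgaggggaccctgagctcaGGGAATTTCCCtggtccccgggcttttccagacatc

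MHC class I genes present peptides to CD8 T cells. All 8 had ratios below 0, against 4565 of all 10159 genes. None was past 2-fold, against 3.49% of all genes at least 2-fold lower. The median was -0.69, against -0.09 in other cells and -0.41 for all genes under 10 kb in cholangiocytes. H2-K1 had 2959 UMIs (2408 CPM) in WT and 1511 UMIs (1283 CPM) in KO, a log2 ratio of -0.91 (-0.9986 to -0.82), and H2-D1 stood at 1149 and 701 CPM. The shared light chain B2m stood at 898 and 608 CPM, and the loading factor Tapbp at 177 and 104 CPM. Per cell, H2-K1 had a median of 23.7 UMIs per 10000 in WT and 10.7 in KO. All are short genes, and the median against genes of like span was -0.24. The list's median was -0.15 within cells of low and -0.42 within cells of high long-gene share, and the H2-K1 ratio -0.74 and -0.70. H2-K1 and H2-D1 are related genes of a family, and whether reads were split between them was not tested.

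Interferon response genes are induced by the pathway that also raises MHC class I. Of 12 genes 1 was 2-fold lower, against 3.49% of all genes, and the median was -0.21 against 0.49 in other cells. The interval lay below 0 for 5 genes, above 0 for 1 and included 0 for 6. The median was 0.38 within low and -0.15 within high long-gene share. Ifi27l2a stood at 263 CPM in WT and 132.5 CPM in KO, below the B-cell levels of 419 and 395 CPM. Bst2, a restriction factor that tethers virions, stood at 141 and 99.3 CPM and Isg15 at 112.3 and 90.0 CPM. Ifit3, the gene past 2-fold, had 39 and 13 UMIs.

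Heat-shock genes were the highest list in KO. Of 11 genes 10 had ratios above 0, against 5594 of all 10159 genes. Past 2-fold were 2, against 7.12% of all genes, and the median of the list was 0.63. The same genes stood at 0.96 in all other cells, so the higher level was not limited to cholangiocytes. Hsph1 (chr5:149614287-149636376, minus strand), a nucleotide-exchange factor of HSP70, had 245 UMIs (199 CPM) in WT and 731 UMIs (621 CPM) in KO, a log2 ratio of 1.64 (1.43 to 1.85) beside 1.69 in other cells. Its median per cell was 1.38 UMIs per 10000 in WT and 4.94 in KO, and the ranges overlapped. The inducible HSP70 gene Hspa1b stood at 1087 and 1898 CPM (0.80), its neighbour copy Hspa1a at 1015 and 1434 CPM (0.50), and reads of these near-identical genes may be split. The mitochondrial chaperonin Hspd1 stood at 212 and 431 CPM, a log2 ratio of 1.02 (0.80 to 1.24). The constitutive Hspa8 was level at 1958 and 2024 CPM. Hspb1, the small heat-shock protein that binds filaments, went the other way at 677 and 544 CPM, whereas its ratio in all other cells was 0.96. Hsph1 was higher within both low (1.53) and high (1.25) long-gene share. B cells of both libraries stood above cholangiocytes for Hsph1 (443 and 1133 CPM), Hspd1 (266 and 621 CPM), Hspa1b (1141 and 2487 CPM) and Hspa8 (1965 and 2515 CPM). Hspa1a was above them only in KO (850.5 and 1911 CPM), and Hspb1 was below them in both (75.6 and 213 CPM). The part of free RNA in the cholangiocyte levels was not tested.

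The heat-shock element was searched as GAANNTTC, which reads the same on both strands, and was found in 6 of 14 promoter windows of this list (42.9%), against 6.69% of all promoters. Hsph1 held no match in its windows. The elements of Hspd1 (chr1:55088039-55088096, minus strand) and Hspa1b (chr17:34959310-34959367, minus strand) are shown with the match in capitals, as 2 of the listed genes that hold it. Hspd1 and Hspe1 are transcribed away from each other from this stretch, and Hspe1 had 410 UMIs in WT and 609 in KO.
Hspd1: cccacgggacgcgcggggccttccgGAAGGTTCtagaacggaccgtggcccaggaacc
Hspa1b: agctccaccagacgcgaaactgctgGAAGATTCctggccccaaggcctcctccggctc

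Immediate early genes, which tissue dissociation is known to induce, were abundant in both libraries. All 12 had enough UMIs, and 11 had ratios below 0, against 4565 of all 10159 genes. A single gene was 2-fold lower, against 3.49% of all genes. The median was -0.42 in cholangiocytes, where all genes under 10 kb had -0.41, and 0.07 in other cells. Fos stood at 7733 CPM in WT and 5841 CPM in KO (-0.40), Jun at 6240 and 5254 CPM, and Atf3, a stress factor, at 5021 and 3810 CPM. Fosb was level at 3433 and 3491 CPM. Ier3 was the gene past 2-fold, with 1131 and 514 UMIs (-1.07, -1.23 to -0.92). Heat-shock and immediate early lists thus stood in opposite directions between the libraries. Within cells of a library, their summed shares moved together, with a Spearman rho of 0.59 over 65 WT cells, as a description.

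Basement membrane and adhesion genes had a median of 0.05 over 14 genes, with 1 gene 2-fold lower, against 3.49% of all genes. The median was -0.55 within low and -0.35 within high long-gene share, and -0.44 against genes of like span. That gene, Col18a1, the basement membrane collagen that yields endostatin, had 100 and 47 UMIs (-1.01, -1.56 to -0.51). It overlaps Slc19a1 on the opposite strand. The integrin Itga6, which binds laminin, had 118 and 195 UMIs, and Cd44, a hyaluronan receptor, stood at 579 and 473 CPM, below its B-cell levels of 991 and 1348 CPM.

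Few cholangiocytes were in cycle. At least 5 UMIs of Mki67, Top2a and Cdk1 together were found in 1 of 65 WT cells (1.54%, 0.0389 to 8.28) and 5 of 55 KO cells (9.09%, 3.02 to 19.95), and these intervals overlap. The single WT cell had 38992 UMIs and the 5 KO cells 21486 to 44249, so all lay above the median depth. Ccnd1, the G1 cyclin, stood at 524 and 565 CPM. Cdkn1a, the cell-cycle inhibitor p21, stood at 186 and 109.5 CPM, a log2 ratio of -0.76 (-1.09 to -0.45), against 0.40 in other cells. It was 0.11 within low (20 KO UMIs) and -1.08 within high long-gene share, and up to 0.42 under the alternatives. Cdkn2a and Cdkn2b had too few UMIs.

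**Figure D4:**
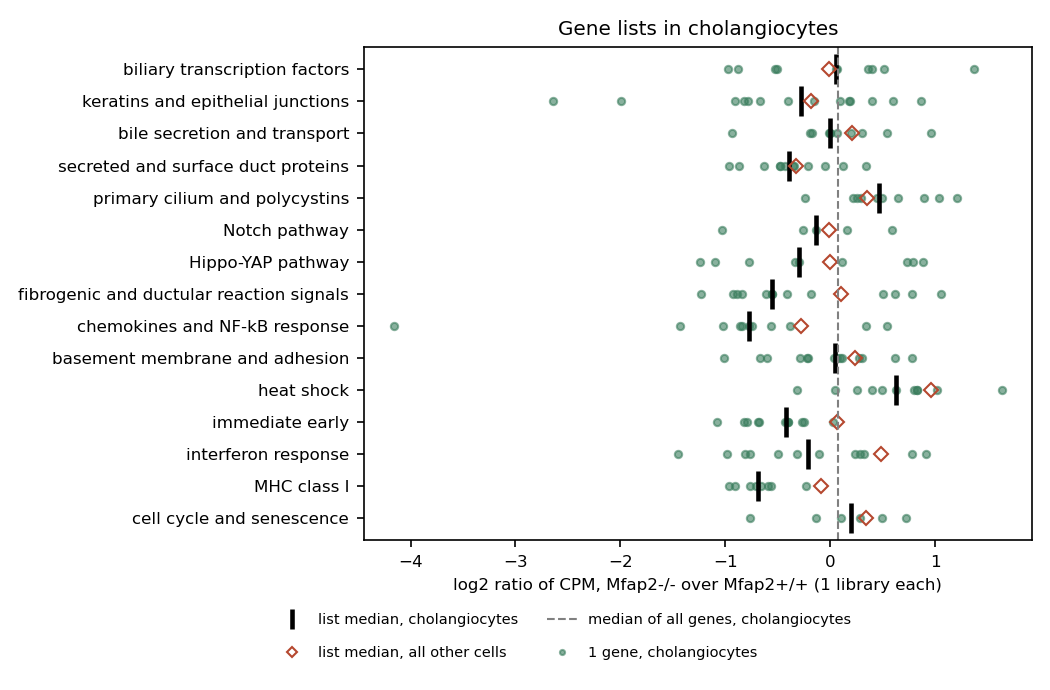
Log2 ratio of CPM, KO over WT, for the genes of 15 lists in cholangiocytes (green points), with the list median in cholangiocytes (black bar) and in all other cells (open diamond); the dashed line is the median of all genes, 0.08. The median is lowest for chemokines and NF-kB response (-0.77) and highest for heat shock (0.63).

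Genes were also named over the whole table, among 536 with a mean of at least 100 CPM, a UMI in at least 20% of cells and a level at least 2 times that of other cells in the library where they were higher. The 10 lowest ratios were those of Cxcl5, Cldn4, Thbs1, Ltb, Tcim, Rhoc, Mmp7, Ccn2, Sfn and Iffo2. Mmp7 encodes matrilysin, a protease of injured and cholestatic ducts. It had 980 UMIs (798 CPM) in WT and 392 UMIs (333 CPM) in KO, a log2 ratio of -1.26 (-1.43 to -1.09), and was -0.59 within low and -0.89 within high long-gene share. Ltb, the lymphotoxin beta chain, had 332 and 83 UMIs (-1.93, -2.30 to -1.59), against -0.26 in other cells, where lymphocytes make it. Thbs1, a TGF-beta-activating matrix protein, had 407 and 71 UMIs, with 59% of the WT UMIs in 3 cells. Sfn, the epithelial 14-3-3 protein sigma, had 285 and 117 UMIs, and the small GTPase gene Rhoc 181 and 71. Within low long-gene share Sfn was at 0.21 and Rhoc at -0.05, and within high share at -1.66 and -0.78. Tcim had 250 and 65 UMIs and Iffo2 223 and 92.

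The 10 highest ratios included those of Kcnq1ot1, Erc2, Ctnna2, Dpyd, Erbb4, Stard13, Fgf12 and Nebl. Of the 10, 8 span more than 100 kb. Erbb4, a receptor of neuregulins (1076 kb, chr1:68032186-69108059), had 805 UMIs (655 CPM) in WT and 2498 UMIs (2121 CPM) in KO, a log2 ratio of 1.69 (1.58 to 1.81), and stood at 0.13 within low and 1.09 within high long-gene share. Kcnq1ot1 is an antisense RNA within Kcnq1, and had 43 and 208 UMIs (2.31, 1.86 to 2.85). Erc2 had 65 and 257 UMIs and Ctnna2 59 and 215. Long genes, several of them known from neurons, thus made up most of the upper end, and short genes most of the lower end.

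Genes that set cholangiocytes apart from all other cells were listed by the smaller of their WT and KO folds over those cells, as a description of the chosen cells. The 15 leading genes were Onecut1, Spp1, Tm4sf4, Pkhd1, Dcdc2a, Mmp7, Ppp2r2b, A230001M10Rik, Kcnip4, Ocln, Gm609, Tspan8, Kcnma1, Sorbs2 and Slit2. Spp1 was 16.5-fold higher than in other cells in WT and 13.8-fold in KO, and Pkhd1 14.01-fold and 16.1-fold. The other cells included 91 WT and 152 KO cells with at least 7 of the 9 biliary genes. The part of these cells, and of free RNA, in the folds was not tested. Kcnma1, the large-conductance calcium-activated potassium channel, stood at 422 CPM in WT and 969 CPM in KO (1.20, 1.05 to 1.35). Its ratio was -0.08 within low (37 KO UMIs) and 0.69 within high long-gene share. Kcnip4, a potassium-channel partner, was uneven between cells, with 53% of WT and 50% of KO UMIs in 3 cells, and stood at 640.5 and 639 CPM. Slit2, a guidance ligand, had 519 UMIs in 39 WT cells and 670 in 42 KO cells (0.43). Both had ratios below 0 within low and high long-gene share, on few KO UMIs in the former. Kcnip4 was at -1.92 (8 KO UMIs) and -1.54, and Slit2 at -0.95 (16 KO UMIs) and -0.60. In the few hepatocyte-rich cells (19 WT and 67 KO, hepatocyte markers at least 5% of UMIs), Krt7 was listed at 0 in both libraries and Epcam stood at 10.4 and 7.48 CPM. Other genes of the duct lists were present there, with Clu at 2259 and 906 CPM, Lcn2 at 1249 and 625 CPM, Spp1 at 1145 and 241 CPM, Krt8 at 593 and 356 CPM and Tm4sf4 at 406 and 224 CPM. Cells with mesothelial markers were not used as a comparison, because Epcam reached 443 and 541 CPM in them.

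Among cholangiocytes of a library, the long-gene share was lower where the ribosomal protein share was higher, with a Spearman rho of -0.65 over 65 WT and -0.82 over 55 KO cells, as a description over cells that share a library and differ in depth. Pkhd1 went with the long-gene share (0.62 and 0.75), of which it is itself a part. Krt8 and Krt18 together were less tied to it in WT (-0.12) than in KO (-0.54), values set side by side without a test.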

How the data were processed

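Counts per gene and barcode were deposited by the authors as raw UMI matrices, and the file headers name Cell Ranger 7.0.1 as the software; the submitters' processing notes name Cell Ranger 3.1.0, Seurat and the mm10 build. Whether intronic reads were counted, and any strand setting, are not given in the sources used here. Libraries used Chromium 3′ v3 chemistry, per the labels' protocols. A barcode needed 200 or more genes and no more than 20% mitochondrial UMIs, and the rule was applied to raw counts. Doublets were not removed; Scrublet (scanpy 1.11.5) served as an alternative.

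UMIs were summed over cholangiocytes per library and scaled to 1000000 (CPM), with exact Poisson intervals, exact conditional intervals for ratios and Clopper-Pearson intervals for shares, at 95%. PCR copies are collapsed by UMIs, and the intervals cover counting error only. With 1 library per genotype there was no test. Genes needed at least 20 UMIs over both libraries, and a gene past a fold of 2 is a description. Named genes were the rule genes, the most abundant and the most different genes of each list, and the extremes given in the text. Spans came from GENCODE M21 (GRCm38), which matched 32158 of 32285 identifiers. Cells and lists were chosen with earlier results of these data known. The interval step was tested on simulated data. Computations used numpy 2.4.6, scipy 1.17.1 and pandas 2.3.3. A few genes of the lists are not reported here.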

Additional observations from a re-analysis of the deposited data

How the results depend on the processing

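No paired analysis was possible because each genotype has 1 library. The log2 ratio of shares was -0.40 by the rule. It was -1.16 with tighter limits on other lineages (C1q at most 5, endothelial at most 1; 22 WT and 11 KO cells), -1.02 without cells holding mesothelial markers (49 and 27 cells), and 0.34 with at least 7 of 9 biliary genes in place of Epcam and keratins, an alternative added after seeing the data, as were those without cells of fewer than 5 biliary genes and against genes of like span.

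Genes at least 2-fold higher numbered 723, against 441 with the tighter limits, 142 after thinning to 1000 UMIs, 408 at a minimum of 50 UMIs, 3313 with no minimum, and 439 against genes of like span. Genes 2-fold lower numbered 355, against 210, 64, 162 and 1086 in the first 4 of these, and 603 by the mean of per-cell CPM. Fewer cells or genes entered with the tighter limits, thinning and the higher minimum.

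With the tighter limits the median was -1.01 for secreted and surface proteins, 0.26 for Hippo-YAP, 0.20 for fibrogenic signals, -0.074 for chemokines, 0.48 for basement membrane, 1.02 for heat shock and -0.27 for immediate early genes. After thinning, with 1146 genes used, it was 0.32 for Hippo-YAP, 0.14 for fibrogenic signals, -1.10 for interferon response and -0.20 for cell cycle. For Notch the median after thinning was -2.07, the same value as that of the single gene Hes1. Against genes of like span it was -0.14 for secreted proteins, 0.96 for heat shock, -0.13 for immediate early genes and -0.24 for MHC class I. With 7 of 9 biliary genes it was -0.46 for Hippo-YAP and -0.56 for immediate early genes, and without mesothelial markers -0.22 for immediate early genes and -0.32 for cell cycle. By per-cell means it was -0.34 for chemokines and -0.29 for immediate early genes. It was 0.066 for fibrogenic signals without the 3 richest cells, and -1.01 for chemokines at 5 keratin UMIs. The cause was not tested. The medians of chemokines, MHC class I, immediate early genes, keratins and secreted proteins were below 0, and those of heat shock and cilium genes above 0, under all 16 alternatives, which leave out the split by long-gene share given with the results. Of the genes past 2-fold, Ccl2 reversed, at 0.45 by per-cell means. Cldn4 stayed between -2.86 and -1.99, Hsph1 between 1.44 and 2.15, and Pkhd1 between 0.52 and 1.41. Scaling by the median of ratios moved all genes by 0.08.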
